A study of Mus musculus with 6 samples.

Results

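The microRNAs miR-103 and miR-107 were followed through the 5 array probes that carry their names, out of 1900 mouse miRNA probes: mmu-miR-103-3p, mmu-miR-107-3p, mmu-miR-103-1-5p, mmu-miR-103-2-5p and mmu-miR-107-5p, written below without the mouse prefix. The probes were chosen by name alone, with any arm and any copy number. The samples were bone marrow-derived progenitor cells from adult male mice, grown from marrow mononuclear cells in the endothelial medium EGM-2 for 4 days, washed free of floating cells and kept for another 3 days. The db/db mice, the diabetic group, carry the leptin receptor mutation on both chromosomes and become obese and type 2 diabetic, and the db/+ mice, their littermate controls, carry it on 1. There were 3 arrays per group, each with 1 Cy5-labelled sample, with no statement in the labels that separate mice were used, so a p-value here measures only how these samples spread, which may be technical. The labels give no age beyond adult, and precision is limited by the number of arrays.

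Both miRNAs are cut from introns of the Pank genes, which encode pantothenate kinases, the enzymes of the first step of coenzyme A synthesis. The 3p arm is the strand that mostly enters the silencing complex, and the 5p arm is the partner strand of the hairpin. MiR-103 and miR-107 are known from mice for their raised level in the liver of obese animals, for the gain in insulin sensitivity when they are silenced, and for their target Cav1, a membrane protein that stabilises the insulin receptor. Whether diabetic marrow progenitors differ from controls in the same miRNAs is the question the arrays can address.

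The 3 hairpins are shown because they show which probe reads which locus, with the 5p and 3p arms in capitals, from RefSeq on GRCm38.p6.
Mir103-1: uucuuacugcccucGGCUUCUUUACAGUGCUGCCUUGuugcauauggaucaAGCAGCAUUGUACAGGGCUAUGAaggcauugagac
Mir103-2: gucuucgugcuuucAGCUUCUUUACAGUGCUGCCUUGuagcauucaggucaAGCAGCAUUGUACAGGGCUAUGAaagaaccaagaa
Mir107: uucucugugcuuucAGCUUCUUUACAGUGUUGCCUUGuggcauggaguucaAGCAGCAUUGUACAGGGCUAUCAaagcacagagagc

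Mir103-1 lies at chr11:35782396-35782481 on the plus strand within the span of Pank3. Mir103-2 lies at chr2:131288052-131288137 on the plus strand within Pank2, and Mir107 at chr19:34820687-34820773 on the minus strand within Pank1. Each Pank gene runs on the strand of its hairpin. Both miR-103 loci give the same 3p arm, so the miR-103-3p probe reads the sum of Mir103-1 and Mir103-2, while the 5p probes are named for 1 locus each. All 5 array targets were identical to the RefSeq mature sequences.

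The mature 3p arms share their seed, the bases that pair with target messages, here bases 2 to 8 in capitals.
miR-103-3p: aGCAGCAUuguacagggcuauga
miR-107-3p: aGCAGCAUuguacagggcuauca

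They are 23 bases long and differ by 1 substitution, G22C, counted from the 5′ end of miR-103-3p. No other target on the array lay within 4 edits of either, the closest other target being 7 edits away, and the seed GCAGCAU stood at bases 2 to 8 in these 2 of the 1900 targets only. The 5p arms differ from each other by 1 or 2 substitutions, with the bases that vary among them in capitals.
miR-103-1-5p: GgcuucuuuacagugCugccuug
miR-103-2-5p: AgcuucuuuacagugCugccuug
miR-107-5p: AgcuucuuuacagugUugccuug

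MiR-103-1-5p and miR-103-2-5p differ by G1A, and miR-103-2-5p and miR-107-5p by C16U. MiR-103-1-5p and miR-107-5p differ by both. Probes for targets 1 or 2 bases apart may bind each other's miRNA. How far they did so was not tested, so the probes within an arm are not separate measurements.

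The arrays differed in brightness, and most of their probes were dim. The median of the 4 blank spots lay between 39.1 and 97.2 scanner units on the 6 arrays, and the median miRNA probe between 49.5 and 104.4. On db/db replicate 3 the median probe, at 65.7 units, lay below the median blank, at 73.0. The blanks of that array ran from 42.2 to 80.2 units, so its readings in times the blank rest on a wide spread. A probe was taken as detected on an array where the mean of its spots was above the 95th percentile of the blanks, and as tested where it was detected on at least 3 arrays, which left 1181 probes. The number detected ran from 751 on db/db replicate 3 to 1855 on db/db replicate 1. MiR-126a-3p, known from endothelial cells, read 15.6 to 35.7 times the median blank, while its partner strand miR-126a-5p lay at 0.602 to 1.15 times and was not tested. MiR-223-3p, known from myeloid cells, read 96.1 to 282.0 times. It was the brightest of the haematopoietic list, of whose 18 probes 8 were detected on all 6 arrays. Other members of that list lay near the blanks, among them miR-150-5p at 0.698 to 1.29 times, miR-144-3p at 0.566 to 1.15 times and miR-486a-5p at 0.931 to 1.48 times. The liver miRNA miR-122-5p lay at the level of the blanks, at 0.882 to 1.23 times. Of the 8 probes of the stromal list of miR-143, miR-145a, miR-199a and miR-214, all tested, 5 were detected on all 6 arrays, with miR-199a-3p at 30.7 to 113 times the blank. The other 3, miR-143-5p, miR-145a-3p and miR-214-5p, lay near the blanks, between 0.690 and 2.30 times. The summed level of the stromal list ran from 203 to 278 times the blank in db/+ and from 114 to 294 times in db/db cells. That of the haematopoietic list, with 12 of 18 probes tested and miR-223-3p as its brightest, ran from 164 to 382 and from 265 to 352 times. Their part in the results below was not tested. In such mixed cultures, fewer cells of a type and less of a miRNA per cell cannot be told apart.

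The 3p arms of both miRNAs were bright and did not differ detectably between db/db and db/+ cells. The scanner signal of miR-103-3p in db/+ replicates 1, 2 and 3 was 2688, 2606 and 1415 units, against 1332, 2393 and 3183 units in db/db replicates 1, 2 and 3. Its groups overlapped completely in this raw signal, with the 2 lowest arrays from different groups. These signals were 27.6, 40.8 and 36.2 times the median blank in db/+ and 30.3, 42.4 and 43.6 times in db/db cells. For miR-107-3p the db/+ signals were 2552, 2467 and 1381 units and the db/db signals 1393, 2276 and 2927 units, which is 26.2, 38.6 and 35.3 times the median blank and then 31.6, 40.3 and 40.1 times. The pair rose and fell with the same arrays.

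**Figure D1:**
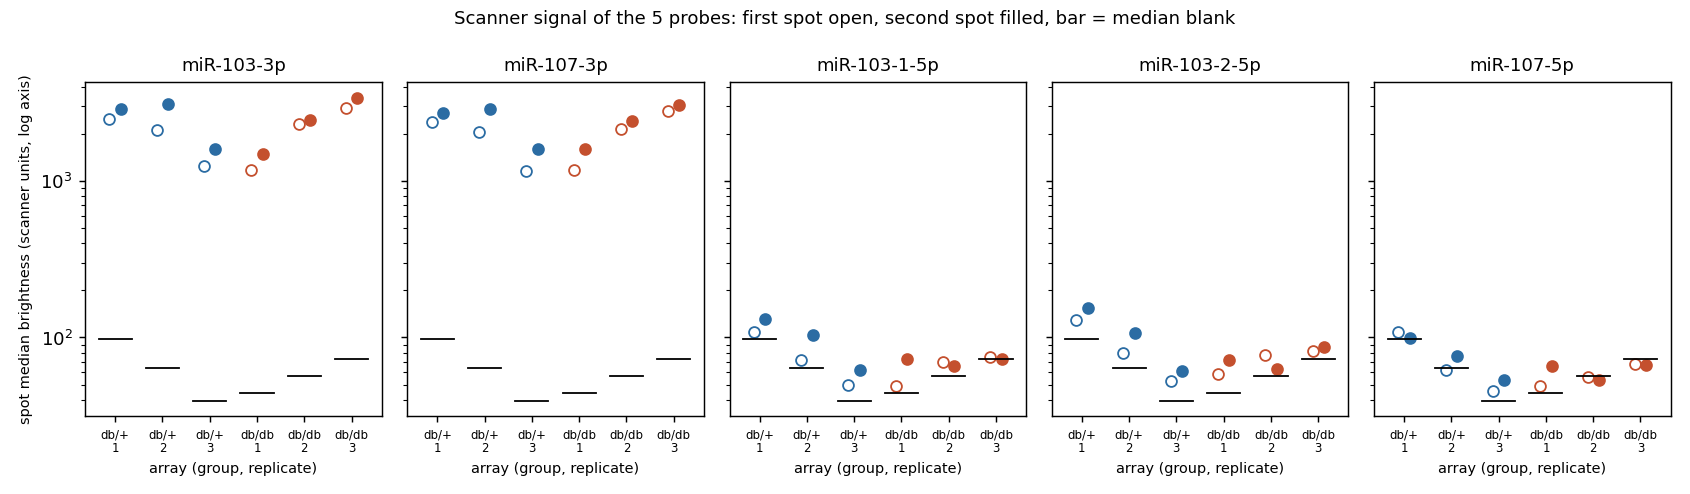
Scanner brightness on a log axis of the first spot (open) and second spot (filled) of each probe on the 6 arrays, db/+ in blue and db/db in orange, with the median of that array's blanks as a bar. As the mean of both spots, the 3p arms read 26.2 to 43.6 times the median blank and the 5p arms 0.915 to 1.47 times. Single spots range more widely.

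Ranked by scanner signal, miR-103-3p was probe 85, 78 and 48 of 1900 in db/+ and 77, 77 and 50 in db/db cells. MiR-107-3p was 89, 81 and 49 and then 70, 83 and 57. At least 95.3% of the miRNA probes were dimmer than either of them on every array. A rank also carries the binding strength of the probe, and is set here only against the same probe on other arrays. Db/+ replicate 3 and db/db replicate 3 held the highest places for both probes, so the better ranks were shared between the groups.

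After background correction, quantile normalization and averaging of both spots, miR-103-3p had normalized log2 intensities of 10.72, 10.95 and 11.58 on db/+ replicates 1, 2 and 3 and of 10.95, 10.84 and 11.57 on db/db replicates 1, 2 and 3. Replicate 3 of each group was high and the other 4 arrays lay close together, with the db/db values inside the span of the db/+ values. The db/+ mean was 11.08 ± 0.44 (SD, n = 3) and the db/db mean 11.12 ± 0.40 (SD, n = 3). The log2 difference of db/db minus db/+ was 0.039 (SE 0.28), with a 95% interval of -0.63 to 0.70 and a limma adjusted p of 0.98. As a fold this is 1.03, with an interval from 0.648 to 1.63, so neither a fall to 0.648 nor a rise to 1.63 times the control level would stand outside it.

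MiR-107-3p gave normalized log2 intensities of 10.66, 10.82 and 11.53 for db/+ and 10.99, 10.79 and 11.40 for db/db cells. Replicate 3 of each group was again the highest, and the groups overlapped. The db/+ mean was 11.01 ± 0.46 (SD, n = 3) and the db/db mean 11.06 ± 0.31 (SD, n = 3). The log2 difference was 0.054 (SE 0.27), with a 95% interval of -0.58 to 0.68 and a limma adjusted p of 0.97, a fold of 1.04 with an interval from 0.671 to 1.61.

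**Figure D2:**
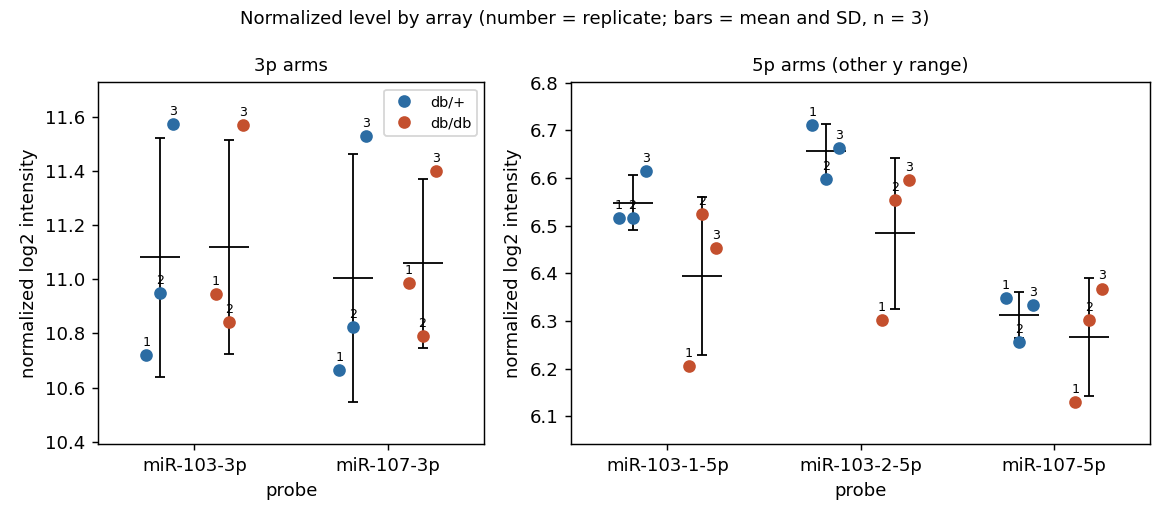
Normalized log2 intensity of each probe by array, with the replicate number beside each point, db/+ in blue and db/db in orange, and bars for the mean and SD of 3 arrays. The 3p arms (left) overlap between the groups, with replicate 3 highest in each, and miR-103-2-5p (right, on another y range) is lower on all db/db arrays.

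Among all 1181 tested probes 0 passed an adjusted p under 0.05 by limma, a percent called of 0, and 59 had an unadjusted p under 0.05, or 5%. None of the 5 miR-103 and miR-107 probes was among the latter. An absolute difference larger than that of miR-103-3p was seen for 84.8% of the tested probes, and larger than that of miR-107-3p for 79.0%. Their spread was wide, however: 84.6% of the tested probes varied less within groups than miR-103-3p and 82.2% less than miR-107-3p, whose residual SDs were 0.42 and 0.39 on the log2 scale against a median of 0.21. Small differences and wide intervals stood side by side for this pair.

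**Figure D3:**
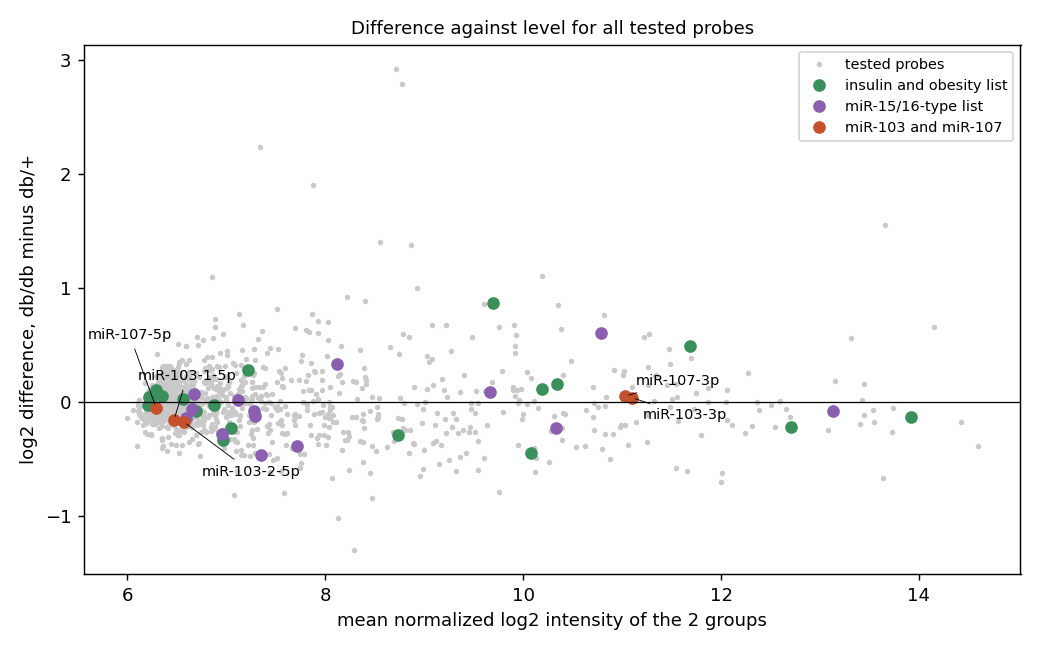
Log2 difference (db/db minus db/+) against the mean normalized log2 intensity of both groups for the 1181 tested probes in grey, with the 5 miR-103 and miR-107 probes, the insulin and obesity list and the miR-15/16-type list in colour. The 3p arms lie at 0.039 and 0.054, close to the zero line, at a mean level near 11.

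The direction of the small 3p differences depended on single arrays. For miR-103-3p the log2 difference was -0.14 with db/+ replicate 1 left out, -0.031 with db/+ replicate 2 left out, -0.19 with db/db replicate 3 left out and 0.29 with db/+ replicate 3 left out. For miR-107-3p the same 4 values were -0.12, -0.046, -0.12 and 0.33. Leaving out db/db replicate 1 or 2 gave 0.13 and 0.18 for miR-103-3p and 0.093 and 0.18 for miR-107-3p. With every setting run, the limma adjusted p of both was at least 0.81.

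**Figure D4:**
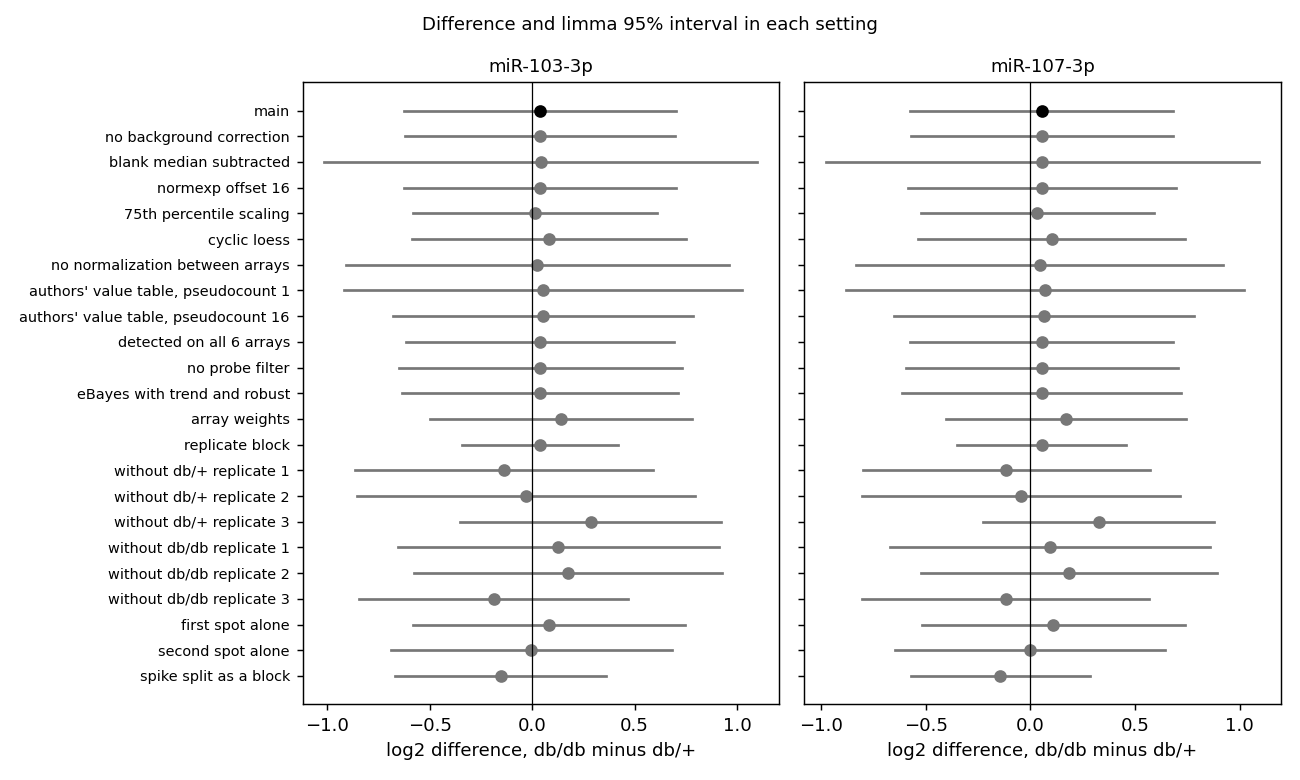
Log2 difference (db/db minus db/+) of miR-103-3p and miR-107-3p with its limma 95% interval in each setting run, the reported setting in black and the others in grey. Every interval crosses 0, and the points run from -0.19 to 0.29 for miR-103-3p and from -0.14 to 0.33 for miR-107-3p.

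The arrays also differed in the spike controls PUC2PM-20B and a3-PUC2PM-20B, a split picked after its values had been seen. Those bright in them were db/db replicate 2 with db/+ replicates 1 and 2, and the other 3 arrays were dim. Within the bright arrays the log2 difference was 0.0080 for miR-103-3p and 0.048 for miR-107-3p, and within the dim arrays it was -0.32 and -0.34. With this split as a block the differences were -0.15 and -0.14, at limma adjusted p of 0.84 and 0.81. Each set has a group with 1 array only, so these values rest on that array, and the part of the spike split in the results was not tested.

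The ratio of the pair within an array was far steadier than either probe. The scanner signal of miR-103-3p over that of miR-107-3p was 1.05, 1.06 and 1.02 on db/+ replicates 1, 2 and 3 and 0.956, 1.05 and 1.09 on db/db replicates 1, 2 and 3. The ratio thus stayed between 0.956 and 1.09 while the scanner signal of miR-103-3p itself spanned 2.39-fold and that of miR-107-3p 2.12-fold. Those spans also carry the brightness of the arrays, which cancels in a ratio within an array. After normalization they were 1.81-fold and 1.82-fold. The ratio is not the proportion of the miRNAs in the cells, because probes differ in binding. On the normalized log2 scale the ratio had a db/+ mean of 0.076 ± 0.044 (SD, n = 3) and a db/db mean of 0.061 ± 0.11 (SD, n = 3), a difference of -0.015. The two-sided p of the exact permutation test was 0.90, and 3 arrays against 3 cannot give less than 0.10. The probes of the pair were not seen to move apart. Binding of each other's miRNA, which was not tested, would hold their ratio steady. The ratio thus cannot show whether the miRNAs themselves moved apart.

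**Figure D5:**
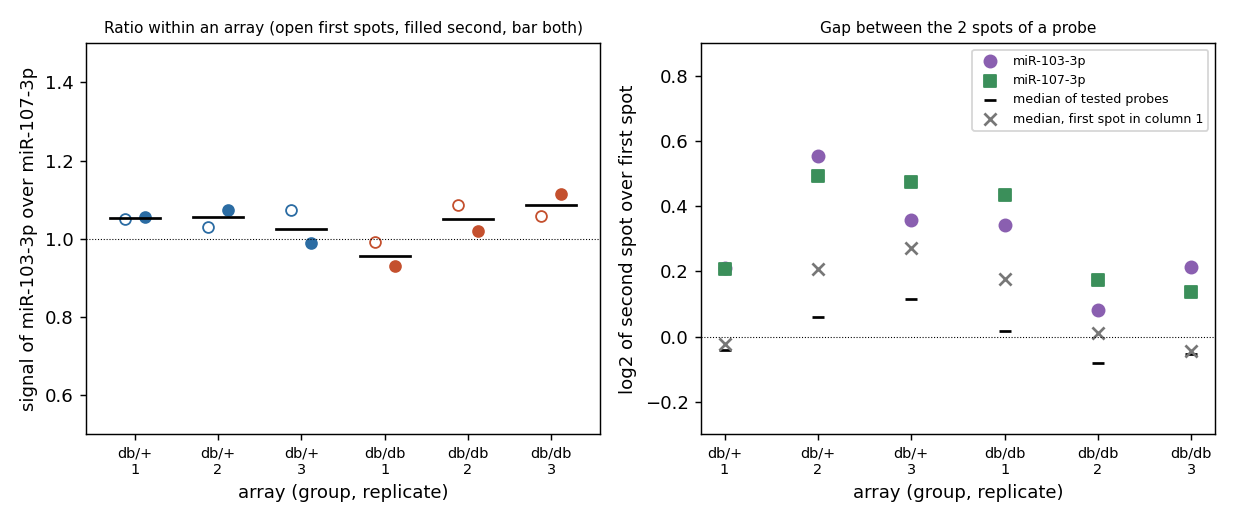
Left, the signal of miR-103-3p over miR-107-3p within each array, for the first spots (open), the second spots (filled) and both (bar), db/+ in blue and db/db in orange. Right, the log2 ratio of the second to the first spot for miR-103-3p, miR-107-3p, the median tested probe and the median of the 48 tested probes whose first spot lies in column 1. The ratios by array stay between 0.956 and 1.09, and the second spot of both probes is the brighter on all 6 arrays.

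The probes were printed in 2 places each, the first copy in column 1 of the array and the second in column 16. For miR-103-3p the second spot was brighter than the first on all 6 arrays, by 0.083 to 0.55 on the log2 scale. For miR-107-3p it was brighter by 0.14 to 0.49. The median gap of all tested probes ran from -0.082 to 0.12, and that of the 48 tested probes that also begin in column 1 from -0.045 to 0.27. The gap between the copies of a probe was larger on all 6 arrays than the difference between the groups, for both miRNAs. With the first spot alone the differences of miR-103-3p and miR-107-3p were 0.082 and 0.11, and with the second alone -0.0041 and -0.0013.

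The 5p arms, the partner strands, lay close to the blanks, and none of them passed the test. MiR-103-2-5p, from the Pank2 locus, was detected on all 6 arrays, at 1.46, 1.46 and 1.45 times the median blank in db/+ and 1.47, 1.24 and 1.16 times in db/db cells. Its normalized log2 intensities were 6.71, 6.60 and 6.66 in db/+ and 6.30, 6.55 and 6.60 in db/db cells, so every db/db array lay below every db/+ array, by the narrow margin of the highest db/db and the lowest db/+ value. Among all tested probes 5.59% were separated in that direction, 4.06% in the other and 9.65% in either, so 1 such probe among the 5 is no result about them. The means were 6.66 ± 0.056 (SD, n = 3) and 6.48 ± 0.16 (SD, n = 3), the log2 difference -0.17 with a 95% interval of -0.48 to 0.13 and a limma adjusted p of 0.89. The exact permutation p of 0.10 is the smallest that 3 against 3 arrays can give.

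MiR-103-1-5p, from the Pank3 locus, was detected on all 3 db/+ arrays and on 2 of the db/db arrays. It read 1.24, 1.37 and 1.43 times the median blank on db/+ replicates 1, 2 and 3 and 1.38, 1.21 and 1.01 times on db/db replicates 1, 2 and 3. Its normalized log2 intensities were 6.52, 6.52 and 6.61 in db/+ and 6.21, 6.52 and 6.45 in db/db cells, which overlap. The log2 difference was -0.15 with a 95% interval of -0.47 to 0.16 and a limma adjusted p of 0.89.

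MiR-107-5p, from the Pank1 locus, was detected on 2 of the db/+ and 1 of the db/db arrays. It read 1.06, 1.08 and 1.26 times the median blank in db/+ and 1.30, 0.965 and 0.915 times in db/db cells, so its signal could not be told from the blanks on db/+ replicate 1 and db/db replicates 2 and 3. The normalized log2 intensities were 6.35, 6.26 and 6.33 and then 6.13, 6.30 and 6.37, with a log2 difference of -0.046, a 95% interval of -0.33 to 0.24 and a limma adjusted p of 0.96. At this signal a difference in the 5p arms was not detectable, and the values do not show that there is none.

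Db/db replicate 1 was the lowest array for all 3 of the 5p probes after normalization, although over its own median blank it was the highest for miR-103-2-5p and miR-107-5p. Without it the log2 differences were -0.084 for miR-103-2-5p and -0.063 for miR-103-1-5p, and miR-107-5p was not tested. It is also the array with the most detected probes, 1855, and its part in the 5p values beyond that was not tested. Values this near the blanks move with the background correction. With an offset of 16 in place of 50 the log2 differences were -0.27 for miR-103-2-5p, -0.25 for miR-103-1-5p and -0.086 for miR-107-5p, at a limma adjusted p of 0.89, 0.89 and 0.94. With the median blank subtracted and values below 1 set to 1, the log2 differences were -0.99 for miR-103-2-5p, -1.03 for miR-103-1-5p and -1.08 for miR-107-5p, at a limma adjusted p of 0.78 for each, and the median of all tested probes moved from -0.023 to -0.11. MiR-107-5p was below the median blank on db/db replicates 2 and 3, so its value there depends on that floor. The floor also set 1 spot of miR-107-5p on db/+ replicate 2 and 1 spot of miR-103-1-5p on db/db replicate 3.

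The authors' processed value table, on a linear scale, gave values of like order. MiR-103-3p had 1620, 1980 and 2856 in db/+ and 1800, 1797 and 3170 in db/db cells, and miR-107-3p had 1553, 1906 and 2788 and then 1887, 1718 and 2929. The groups overlapped for both. MiR-103-2-5p had 34.3, 32.6 and 34.0 in db/+ and 14.2, 23.5 and 30.4 in db/db cells, and miR-103-1-5p had 21.8, 27.8 and 32.0 and then 11.2, 21.76 and 21.76, where 21.83 was the lowest db/+ value. Both miR-103 5p probes were lower on every db/db array in this table, as were 4.74% of the 1181 probes, with 8.98% separated in either direction. The exact permutation p was 0.10 for each. The log2 differences with a pseudocount of 1 were -0.61 and -0.60, at a limma adjusted p of 0.84 for both. MiR-107-5p had 13.7, 12.6 and 13.2 in db/+ and 4.18, 10.4 and 16.2 in db/db cells. Its groups overlapped, with an exact permutation p of 0.50.

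The arms of miR-103 were also compared within arrays. The normalized log2 ratio of miR-103-3p to miR-103-2-5p averaged 4.42 ± 0.46 (SD, n = 3) over the db/+ and 4.64 ± 0.34 (SD, n = 3) over the db/db arrays. The difference was 0.21 (exact permutation p 0.50, two-sided). It was 0.0011 without db/+ replicate 1 and 0.47 without db/+ replicate 3, and with the blank median subtracted it was 1.03 at an exact p of 0.20. A change in the proportion of the arms was not shown.

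Over the 6 arrays the normalized values of miR-103-3p and miR-107-3p had a Pearson correlation of 0.982. Between the 3p and 5p arms it was 0.164 for miR-103-3p and miR-103-2-5p, 0.240 for miR-103-3p and miR-103-1-5p, and 0.260 for miR-107-3p and miR-107-5p. These are descriptions over 6 points that share arrays and normalization. The 3p and the 5p arm of a hairpin thus did not follow each other here, in a setting where the 5p signal was near the blanks.

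The probes most like the pair over the same arrays were sought among 668 others detected on all 6. For miR-103-3p they were miR-326-3p, miR-331-3p, miR-101a-3p, miR-345-5p and miR-339-5p, with Pearson correlations of 0.980, 0.978, 0.977, 0.963 and 0.960. For miR-107-3p they were miR-331-3p, miR-326-3p, miR-345-5p, miR-425-5p and miR-34a-5p, with 0.994, 0.986, 0.984, 0.973 and 0.963, so 3 probes stood in both lists. MiR-331-3p, miR-326-3p and miR-345-5p thus followed miR-107-3p more closely than miR-103-3p did, at 0.982. MiR-331-3p had normalized log2 intensities of 7.50, 7.64 and 8.20 in db/+ and 7.74, 7.52 and 8.07 in db/db cells. It was highest on replicate 3 of each group, as the pair was, and its log2 difference between the groups was -0.0020. The points share arrays, normalization and any difference in brightness between arrays.

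The miR-15 and miR-16 family was compared because its seed is shifted by 1 base against that of miR-103 and miR-107. The first 7 bases of miR-103-3p, AGCAGCA, are bases 2 to 8 of most of its members, shown with the seed in capitals.
miR-16-5p: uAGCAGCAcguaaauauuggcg
miR-15a-5p: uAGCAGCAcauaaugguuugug
miR-322-5p: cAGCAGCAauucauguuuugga
miR-503-5p: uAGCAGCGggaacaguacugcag

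This family restrains the cell cycle by repressing cyclins. MiR-503-5p ends its seed in another base. The motif AGCAGCA stood at bases 2 to 8 in 11 of the 1900 targets. Among these, miR-195b, miR-1907, miR-6342, miR-6353 and miR-6419 were not in the list compared here. Of the 15 probes of the list 14 were tested, 0 passed in either direction, 5 had a log2 difference above 0 and 9 below, and the median was -0.077. All tested probes had a median of -0.023, with 539 above 0 and 642 below. MiR-16-5p, the brightest of the list, read 127 to 175 times the median blank and differed by -0.076 on the log2 scale (SE 0.23). The other 5p arms had log2 differences of 0.61 for miR-15a-5p, -0.23 for miR-15b-5p, 0.33 for miR-195a-5p, 0.088 for miR-322-5p, 0.073 for miR-497a-5p and -0.063 for miR-503-5p. Each had a limma adjusted p of at least 0.89, so the values went both ways and none passed.

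A further list held other miRNAs linked to insulin action, obesity or lipid metabolism. Of its 28 probes 19 were tested and 0 passed in either direction, with 10 above 0, 9 below and a median log2 difference of 0.028 against -0.023 for all tested probes. MiR-143-3p, raised in the liver of obese mice, where it dampens insulin signalling, was not higher here, with a db/+ mean of 10.30 ± 0.22 (SD, n = 3) and a db/db mean of 9.85 ± 0.35 (SD, n = 3) in normalized log2 intensity. Its difference of -0.44 (SE 0.21) did not pass, with a limma adjusted p of 0.89. MiR-143-3p also belongs to the stromal list, in which 7 of 8 log2 differences were below 0 with a median of -0.36, 0 passing. Over all 1181 tested probes 642 were below 0. Among the stromal values were miR-199a-3p at -0.70, miR-199a-5p at -0.50 and miR-214-3p at -0.61. For miR-214-3p every db/db array lay below every db/+ array, as for 5.59% of all tested probes. The part of stromal cells in the value of miR-143-3p was not tested. MiR-802-5p, also known from obese mouse liver, was not tested, with signals of 0.700 to 1.28 times the median blank. MiR-34a-5p and miR-335-5p, reported as raised in the liver of obese mice as well, had log2 differences of 0.12 and 0.056, the latter at 0.737 to 1.52 times the median blank.

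The miR-29 family, raised in tissues of diabetic rodents, had log2 differences of -0.13 for miR-29a-3p, 0.87 for miR-29b-3p and 0.50 for miR-29c-3p, with standard errors of 0.18, 0.52 and 0.42. MiR-26a-5p, which raises insulin sensitivity in mouse liver, and its relative miR-26b-5p had -0.22 and 0.16. MiR-378a-3p, encoded in the Ppargc1b gene, had -0.29. The liver miRNA miR-122-5p had 0.042, at the level of the blanks. The islet miRNA miR-375-3p and miR-33-5p, encoded in Srebf2 and a repressor of the cholesterol exporter Abca1, were not tested. None of these values passed, and the smallest limma adjusted p in the list was 0.89.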

How the data were processed

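Per the labels' protocols, 1 µg of total RNA from each of the 6 samples was hybridised to 1 miRNA array by a service provider. Per the file headers, the scanner recorded a median intensity for each spot, with no local background beside it. The authors also deposited processed linear intensities by probe. Those have lowest values near 0 and column medians of 11.9 to 14.1, and their background correction and scaling are not given in the sources used here. They served as an alternative.

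Spots were corrected with normexp (offset 50), converted to log2, quantile-normalized over the miRNA spots and averaged per probe (limma 3.58.1, R 4.3.3). The comparison used lmFit and eBayes on the 6 arrays, with Benjamini-Hochberg adjustment over 1181 probes at 0.05. The limma fit was tested on simulated normalized values and the permutation test on a made-up example. Background correction, normalization and averaging of spots were not part of that simulation. Single ratios were compared by exact permutation. No 2 arrays held the same values, and array pairs correlated between 0.928 and 0.985. The members, lists and tests were chosen with earlier results of these data known. All members, the arms fixed for each list and the 5 probes most correlated with each 3p arm were named; miR-331-3p and miR-16-5p were described further after their values were seen, as were the examples among cell type markers. Sequences are those of RefSeq. Plots came from matplotlib 3.10.9 (Python 3.11.15).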

Additional observations from a re-analysis of the deposited data

How the results depend on the processing

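In no setting did miR-103 or miR-107 probes pass; their limma adjusted p was 0.74 or higher in each. Leaving out 1 array moved the log2 difference of miR-103-3p between -0.19 and 0.29, that of miR-107-3p between -0.12 and 0.33, and that of their within-array ratio between -0.069 and 0.034, above 0 without db/+ replicate 2 or db/db replicate 1. The sign also turned with the second spot alone, to -0.0041 and -0.0013, and with the spike split, chosen after seeing the data, as a block, to -0.15 and -0.14. The 5p differences stayed below 0 in every setting that tested them. Of all probes 1 passed with offset 16, 75th percentile scaling, the authors' table with pseudocount 16, the probes detected on all 6 arrays, or the first spot alone, 2 passed with a trended and robust variance, and 0 to 3 with 1 array left out, the 3 without db/db replicate 2. With the replicate number as a block the differences were again 0.039 and 0.054, that of the ratio -0.015, and 0 probes passed. The limma interval narrowed with this block from -0.63 to 0.70 to -0.34 to 0.42 for miR-103-3p. For miR-107-3p it narrowed from -0.58 to 0.68 to -0.35 to 0.46, while the intervals of the 5p arms widened. Deviations of same-numbered arrays had correlations of -0.043, -0.0029 and 0.037, and those of differently numbered arrays ran from -0.36 to 0.37. Deviations among 3 arrays of a group depend on each other, so these correlations cannot decide whether the numbers pair the samples. Pairing was not tested. The 5p arms were limited by signal over background, the 3p arms by the spread between arrays.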
